A study of Mus musculus with 2 samples.

Results

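The 148 microRNAs (miRNAs) described here are the late-catalogued mouse miRNAs from miR-2000 to miR-3999, out of 1247 on the array. They were taken by name alone, from the number that follows miR-, with any letter or arm suffix, and the osteoblast-cluster miR-2861 and miR-3960 were left out. They carry 79 distinct numbers, from miR-2136 to miR-3971. The range was proposed with earlier results of these arrays known, in which later-numbered miRNAs stood lower in the knockout sample than early-numbered ones, so the members were in effect selected on the same difference that is given below. That difference is therefore a description and carries no test. The miRNAs nearest the limits of the range, miR-1983 and miR-5046 outside it and miR-2136 and miR-3971 inside it, were not above background on either array.

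The study profiled miRNAs of the knee joint cartilage from males 8 weeks old, with 1 control sample, of a genotype labelled wildtype, and 1 sample labelled Col2a1Tsc1KO. In the Col2a1Tsc1KO mice Tsc1, whose protein holds back the growth kinase complex mTORC1, was deleted specifically where the cartilage collagen gene Col2a1 is active, and the labels name neither the Cre line nor the cells that lost the gene. Cartilage was peeled from the joint, so each sample is a bulk of the cells that came with it, and fewer cells of a type cannot be told apart from less RNA per cell. The labels do not say how many mice went into a sample, and with 1 array per group there is no replicate check of any difference. Both arrays lay on 1 slide, so genotype and slide position cannot be told apart.

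A miRNA is cut from one arm of a hairpin transcript and guides silencing proteins to messenger RNAs. Pairing rests mainly on the seed, bases 2 to 8 counted from the 5′ end. miRNA numbers follow the order of entry into the public registry. The early entries are largely conserved miRNAs first found by cloning, whereas many of the later ones came from deep sequencing, are found in rodents only, and have no established role in cartilage. Some of them match short interspersed repeats or other abundant RNAs.

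On the array each miRNA was read by 1 or more short DNA probes complementary to its 3′ part, each printed as many spots. Signal was called well above background for a miRNA when over 50% of the usable spots of at least 1 of its probes carried that mark of the scanner software. The members whose values matter most are shown first as sequences, mature miRNAs from RefSeq (build GRCm38.p6), 5′ to 3′, with the seed in capitals. The 4 that stood lowest in the knockout sample had 4 different seeds, and no other measured miRNA with a RefSeq sequence shared any of them.
miR-3472: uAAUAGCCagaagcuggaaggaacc
miR-3082-5p: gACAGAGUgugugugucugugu
miR-3070b-3p: uGGUGCUAuggucagggguaga
miR-3099-3p: uAGGCUAGagagagguugggga
The 4 with the highest values relative to the control are shown for contrast.
miR-2137: gCCGGCGGgagccccagggag
miR-3473b: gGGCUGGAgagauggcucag
miR-3095-3p: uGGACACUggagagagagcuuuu
miR-3081-5p: gACUGGAGcuuggagcggugagc
The brightest members with a mature sequence besides miR-3473b were miR-3963 and miR-3968.
miR-3963: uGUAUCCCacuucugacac
miR-3968: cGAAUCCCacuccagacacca

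Of the 148 miRNAs, 124 had a mature RefSeq sequence under the array's name and a further 4 through the gene symbol and the probe. Among the 26 measured on both arrays, 19 had one. A signal on these arrays depends on the probe, so the order of brightness between miRNAs is not an order of abundance. The 2 probes of miR-3968 differ in length by a single base, at 14 and 15 bases, and on the control array their spots had median scaled intensities of 172 and 3488.

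Most of the late-catalogued miRNAs gave no signal in this tissue. Of the 148, 29 were well above background on the control array and 29 in the knockout sample, 26 on both, and 32, or 21.6%, on at least 1. Among all 1247 miRNAs 25.7% were so on at least 1 array. The share measured on both arrays was 17.6% here, 20.6% over all miRNAs, 22.1% below miR-700, 16.5% for miR-700 to miR-1999 and 18.6% from miR-4000 on. The count moved little with the rule, to 28 when every usable spot had to be well above background and to 35 when 1 spot was enough.

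Over all 148, 116 were silent on both arrays. Of 119 miRNAs from miR-3057 to miR-3113, 18 were measured on both arrays, and of the 4 named miR-3544 or miR-3572 none was. Of the 10 from miR-3470 to miR-3475, 5 were measured on both, and of the 11 from miR-3961 to miR-3971, 2 were. The 116 had a median probe signal of -2.07 in the control sample and -2.36 in the knockout sample after background subtraction, where negative-control spots had medians of 5.02 and 4.93. Their highest probe signals were 17.97 for miR-3572-5p on the control array and 18.5 for miR-3471 in the knockout sample. Of these 116, a single spot or more was marked well above background for 1 miRNA in the control sample and for 3 in the knockout sample.

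By arm, 12 of 61 miRNAs named 5p, 6 of 62 named 3p and 8 of 25 with no arm in their name were measured on both arrays. The same shares were not taken over all miRNAs of the array, so this is not shown to be a trait of the members. Probes of the 26 measured members held a median of 58.1% G and C, those of the 116 silent members 54.8% and those of the other miRNAs of the array 50%. A longest probe of 14 bases or fewer was found for 34.6% of the measured members, 19.8% of the silent ones and 15.9% of the other miRNAs. Among those others the shares were 25.1% of the ones measured on both arrays and 13.6% of the silent ones, so short probes were likewise more frequent among measured miRNAs outside the range. Whether probe design had a part in which members gave signal was not tested.

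Facts of the whole arrays bear on these values as follows. Of the miRNA spots, 19.6% in the control sample and 21.1% in the knockout sample were well above background, against 17.6% and 18.3% of the 5920 spots of the late-catalogued miRNAs, none of which was saturated. The cartilage miRNAs miR-140-5p, miR-140-3p and miR-455-3p were measured on both arrays, 3 of 3, with summed scaled intensities of 2274 in the control sample and 5221 in the knockout sample. The other arm, miR-455-5p, was not on this list. It was also measured on both arrays and stood level, at a log2 difference of -0.03. Markers of other tissues were present too: the 4 of 4 skeletal muscle miRNAs summed to 1410 and 737, the 4 of 4 leukocyte miRNAs to 9633 and 4454, mostly from miR-223-3p at 8163 and 3632, and the 2 of 2 red cell miRNAs to 2340 and 3472. The 2 of 2 endothelial miRNAs summed to 1555 and 1977. The leukocyte miR-150-5p went the other way, from 34.3 to 53.3. No defining marker was at 0, and the part that these tissues have in the differences of the late-catalogued miRNAs was not tested.

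Differences are given as log2 of the Col2a1Tsc1KO over the control intensity, after each array was scaled to the 75th percentile of the 476 probes well above background on both. Scaled intensities put both arrays at 1 common level, and the errors are standard errors over spots, which hold technical noise only. On this scale the 26 measured members leaned to the lower side and none was far higher in the knockout sample. Their median was -0.34, with a range from -1.52 to 0.33 and an SD of 0.53 between members. Over all 257 miRNAs measured on both arrays the median was -0.22 and the range -1.81 to 2.36. The sign of the members' median turned with the scaling, to 0.091 with the 75th percentile of all probes, 0.068 with no scaling and 0.023 with scaling to the spike-ins, settings that moved the median of all 257 by 0.43, 0.41 and 0.36.

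None of the 26 was at least 2-fold higher in the knockout sample, where 15.6% of all measured miRNAs were. At least 2-fold lower were 4 of the 26, or 15.4%, against 17.5% of all. Above 0 were 6 of the 26, against 40.9% of all. The share at least 2-fold lower was thus near that of all miRNAs, and the upper side was empty. Under all 11 alternative settings the count at least 2-fold higher stayed at 0, while the shares over all miRNAs ran from 6.23% after normexp to 23.0% with no scaling.

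Set against the median of all measured miRNAs, which is free of the scaling constant, 17 of the 26 lay below it, and the members' median lay 0.13 below. The SD between miRNAs was 0.53 for the members and 0.90 over all, and it was 0.99 below miR-700, 0.57 from miR-700 to miR-1999 and 0.44 from miR-4000 on, smaller in each of the later-numbered ranges than below miR-700. Other stretches of the catalogue had medians of 0.06 for the 155 below miR-700, -0.56 for the 33 from miR-700 to miR-1999 and -0.58 for the 33 from miR-4000 on. In those stretches 35, 1 and 0 miRNAs were at least 2-fold higher. The range from miR-2000 to miR-3999 therefore lay between the early numbers and the other late ones.

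**Figure D1:**
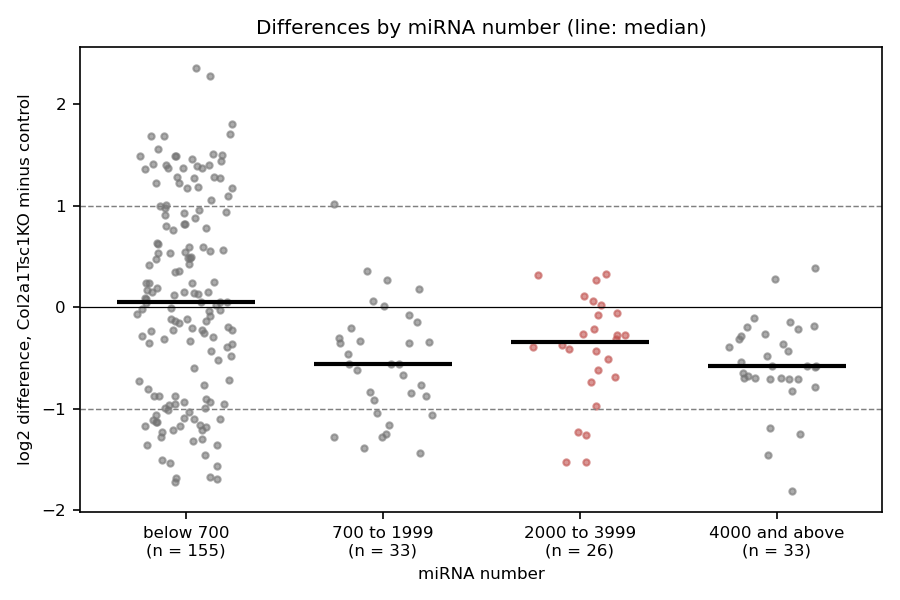
Log2 difference, Col2a1Tsc1KO minus control, of each miRNA measured on both arrays (points) by the number in its name, with group medians as thick lines and 2-fold as dashed lines. The 26 miRNAs from miR-2000 to miR-3999 (red) run from -1.52 to 0.33, with a median of -0.34 and no point above the upper dashed line, whereas 35 of the 155 below miR-700 lie at or above it.

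The gap between the members and the other miRNAs was not the same at every brightness. Measured miRNAs were split by level into 3 classes of like size. Among the bright ones, those above a mean scaled intensity of 210.5, the 9 members had a median of -0.41 and the 77 other miRNAs one of 0.35. In the middle class the medians were -0.31 for 7 members and -0.21 for 78 others, and among the dim ones, below 63.7, they were -0.14 for 10 members and -0.25 for 76 others. Differences and levels were nearly unrelated across the 26 (Spearman's rho -0.07) and weakly related across the other 231 (0.23), as a description of miRNAs that share 2 arrays.

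**Figure D2:**
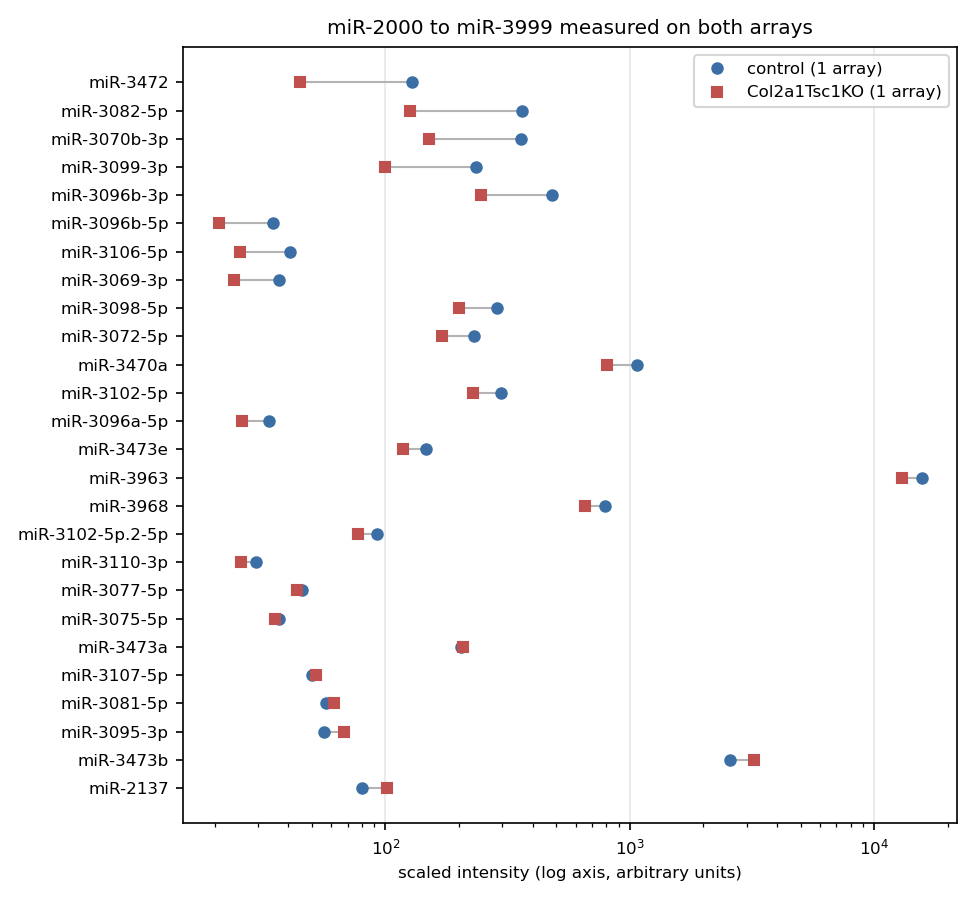
Scaled intensity (log axis) of each of the 26 miRNAs on the control array (blue circles) and the Col2a1Tsc1KO array (red squares), 1 array per group, ordered by difference. The widest gaps are those of miR-3472, from 128 to 44.7, and miR-3082-5p, from 361 to 126, and the 6 lowest rows of the plot have the knockout value on the right.

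The 4 miRNAs at least 2-fold lower came from 4 different chromosomes. miR-3472, had scaled intensities of 128 in the control sample and 44.7 in the knockout sample, which is a log2 difference of -1.52 with an SE over spots of 0.03, or 2.88-fold. Both its probes read lower, at -1.61 and -1.43. On the shorter probe the 20 control spots ran from 92.1 to 115 and the 20 knockout spots from 23.9 to 40.0, and on the longer one 139 to 178 stood against 47.7 to 70.4, so the spots of the arrays did not overlap. The mature sequence lies at chrX:145039390-145039414 on the plus strand (GRCm38.p6), within the span of Rtl4, a gene derived from a retrotransposon.

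miR-3082-5p went from 361 to 126, a log2 difference of -1.52 ± 0.02 or 2.87-fold. Spots of its 15-base probe ran from 234 to 261 in the control sample and from 68.1 to 97.1 in the knockout sample, and those of its 16-base probe from 492 to 594 and from 178 to 231. There was no overlap on either. The sequence lies at chr17:25831406-25831427, minus strand, in a hairpin that overlaps the spans of Jmjd8 and of Stub1, which encodes a ubiquitin ligase.

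The middle of miR-3082-5p is a run of alternating U and G. The motif UGUGUGUG, searched on the RNA strand of the mature sequences or, where there was none, of the probes' complements, was found in 12 of the array's miRNAs, or 0.962%, and in no other of the 148. Of those 12, 5 were measured on both arrays, and they were miR-3082-5p with miR-574-5p, miR-1187, miR-466i-5p and miR-669n. Every one of the 5 was lower in the knockout sample, 3 by 2-fold or more. Their median was -1.06, with a range of -1.52 to -0.95. Low values were not particular to the motif. The measured miR-466, miR-467 and miR-669 names without it were lower too, from -1.68 for miR-669h-3p to -0.12 for miR-669f-3p. Over all measured miRNAs 152 of 257 lay below 0 and 17.5% were at least 2-fold lower, and the motif was looked for because miR-3082-5p, among the lowest members, holds it. The largest shared stretch was the 12 bases common to miR-3082-5p and miR-574-5p, which had 483 in the control sample and 249 in the knockout sample, a difference of -0.95. How far such probes bind each other's targets was not tested.

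miR-3070b-3p went from 360 to 150, a log2 difference of -1.26 ± 0.02 or 2.39-fold, and it was the member read by the most probes. Its 3 probes of 15, 16 and 17 bases gave differences between -1.32 and -1.21, and on each of them the lowest control spot, 285, 331 and 364, lay above the highest knockout spot, 141, 172 and 176. RefSeq lists it as miR-3070-2-3p at chr12:109588648-109588669, plus strand, within the span of Rtl1 in the imprinted Dlk1-Dio3 region. Its near-copy miR-3070a-3p has the same seed and was not well above background on either array.

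A second member, miR-3072-5p, comes from the same region, from Mir3072 at chr12:109747878-109747960 within the span of the noncoding RNA gene Mirg. It had 229 in the control sample and 170 in the knockout sample, a difference of -0.43 ± 0.01. This shrank to -0.0006 with the 75th percentile of all probes, -0.02 with no scaling and -0.07 with spike-ins. The other miRNAs near these 2 genes were mostly silent. Within 10 kb of Mir3070b the sequence table lists 13 other miRNA genes. Their miRNAs account for 23 names on the array, besides miR-3070a-3p and miR-3070a-5p of the near-copy Mir3070a. Of all these names miR-127-3p alone was measured on both arrays, with 54.6 and 53.3, a difference of -0.03 ± 0.04. Within 10 kb of Mir3072 the same held for miR-154-5p alone of 16 names, with 32.4 and 30.6 and a difference of -0.08 ± 0.06. Each of the 2 late-catalogued miRNAs thus stood below the neighbour measured within 10 kb of it, an order that adding a constant to an array cannot change. Both neighbours were dim, and miRNAs of the region beyond 10 kb were not compared.

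miR-3099-3p went from 234 to 100, a log2 difference of -1.23 ± 0.02 or 2.34-fold. Control spots of its shorter and longer probe began at 197 and 223, and knockout spots ended at 107 and 115. The sequence lies at chr7:6803638-6803659, plus strand, within the span of Usp29, a paternally expressed gene of the imprinted Peg3 region. These 4 miRNAs stayed lower under all 11 alternatives, with smallest differences of -0.68 for miR-3472, -1.01 for miR-3082-5p and -0.72 for miR-3099-3p after normexp, and -0.83 for miR-3070b-3p with the 75th percentile of all probes.

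**Figure D3:**
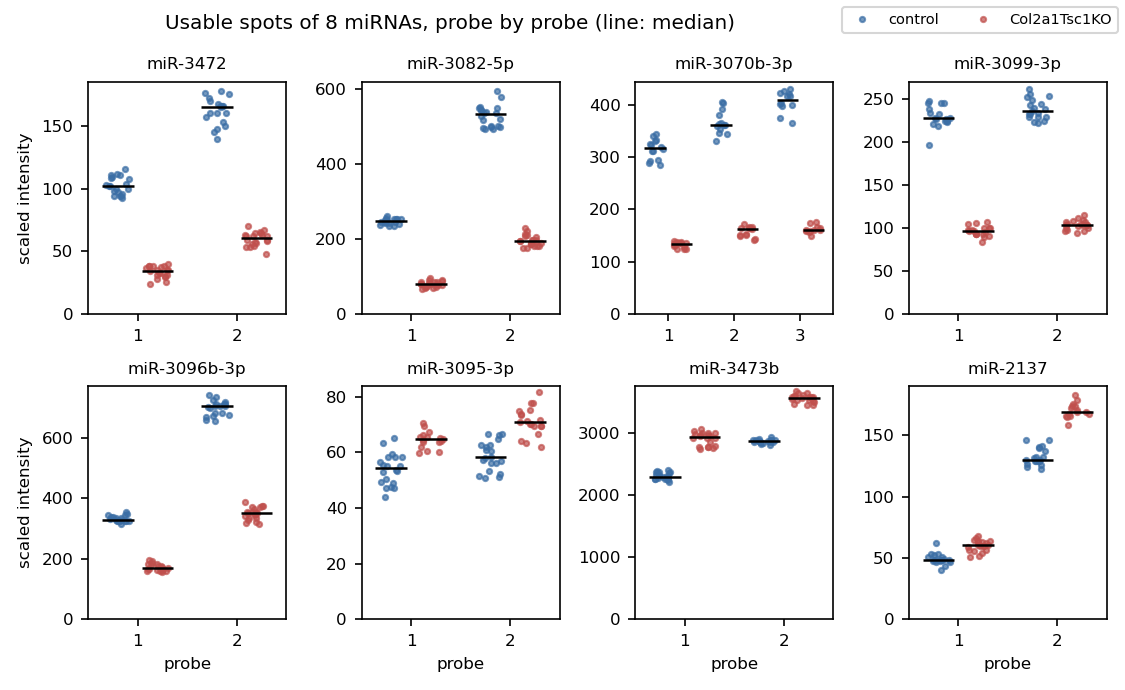
Scaled intensity of every usable spot of 8 of the miRNAs, probe by probe, on the control array (blue) and the Col2a1Tsc1KO array (red), with black lines at the medians. For miR-3472, miR-3082-5p, miR-3070b-3p, miR-3099-3p and miR-3096b-3p all knockout spots of a probe lie below all its control spots, miR-3473b shows the opposite order without overlap, and the spots of miR-3095-3p overlap on both probes and those of miR-2137 on 1 of 2.

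The miR-3096 group followed with both arms of miR-3096b. The array file gives the probes below, written 5′ to 3′, and no mature sequence was found for them in the table used here. The 5p probes share a run of 15 bases, and how far each probe reads the other miRNA was not tested.
miR-3096b-3p probe: tggcctcaggtaaatcc
miR-3096b-5p probe: ttagagttctcatccttgg
miR-3096a-5p probe: agttctcatccttggcc
miR-3096b-3p had 482 in the control sample and 245 in the knockout sample, a log2 difference of -0.98 ± 0.02, just short of 2-fold. On its 16-base probe control spots ran from 315 to 354 and knockout spots from 157 to 197, and on its 17-base probe 657 to 741 stood against 316 to 388. The dim miR-3096b-5p went from 34.6 to 20.7, a difference of -0.74 ± 0.08, and the related miR-3096a-5p from 33.4 to 25.8, a difference of -0.37 ± 0.05. Spots of the dim pair overlapped between the arrays, and miR-3096a-5p turned to 0.06 with the 75th percentile of all probes and 0.04 with no scaling.

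Other members that stood moderately lower came from separate hairpins. miR-3106-5p, from a hairpin within the span of the large membrane protein gene Csmd1, went from 40.7 to 25.3 (-0.68 ± 0.05). miR-3069-3p, which lies with Snhg10 and the small RNA gene Scarna13 on chromosome 12, went from 36.7 to 24.0 (-0.61 ± 0.05). For miR-3069-3p the 18 control spots ran from 29.7 to 41.6 and the 18 knockout spots from 19.1 to 28.4, without overlap, whereas 1 of the 2 miR-3106-5p probes overlapped. Both stayed negative under all alternatives, with smallest differences of -0.09 for miR-3069-3p and -0.14 for miR-3106-5p.

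Hairpins that gave more than 1 measured product allow a comparison within a locus. From Mir3098, on chromosome 6, miR-3098-5p had 286 in the control sample and 200.5 in the knockout sample, a difference of -0.51 ± 0.02, with no overlap of spots on either probe. With the 75th percentile of all probes miR-3098-5p was at -0.08. Its partner arm miR-3098-3p was well above background on the control array alone, where all its usable spots were so marked, with a scaled intensity of 39.4 there and 10.4 in the knockout sample, where none was. This gives a bound of at least 2.33-fold lower, taken against the lowest signal well above background in the knockout sample, 16.9. Both arms thus lay on the same side, with a larger difference on the dimmer arm.
miR-3098-3p: uUCUGCUGccugccuuuagga

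From Mir3102, within the span of Arhgef17 on chromosome 7, 3 products were seen. miR-3102-5p went from 297 to 227, a difference of -0.39 ± 0.01, with no overlap of spots, as those of its shorter probe ran from 265 to 285 in the control sample and from 204 to 229 in the knockout sample. miR-3102-5p.2-5p went from 92.3 to 77.1, a difference of -0.26 ± 0.03, and its probes were the least alike of all members read by several, at -0.39 and -0.13. miR-3102-3p.2-3p was well above background on the control array alone and at least 1.89-fold lower in the knockout sample. The 2 measured products turned positive with the 75th percentile of all probes, to 0.05 and 0.17.

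The brightest members stood less than 2-fold apart between the samples. miR-3963 had 15639 in the control sample and 12970 in the knockout sample, a difference of -0.27 ± 0.01. Its 16-base probe ran from 24557 to 28477 in the control sample and from 19169 to 23245 in the knockout sample, below saturation and without overlap, and its 15-base probe from 9097 to 9881 and from 7373 to 8396. The direction nonetheless rests on the scaling, since the difference was 0.16 with the 75th percentile of all probes, 0.14 with no scaling and 0.09 with spike-ins. It was exactly 0 with quantile normalization, alone or after normexp, which gives probes of the same rank the same value on both arrays. The authors' deposited table has 0 as well. miR-3968, within the span of Trim80 on chromosome 11, had 788 and 654, a difference of -0.27 ± 0.03, and its spots overlapped on both probes. It too turned positive with the 75th percentile of all probes, no scaling and spike-ins, to 0.16, 0.14 and 0.096. In the other direction it was -0.41 with quantile normalization, -0.39 after normexp and -0.61 in the authors' deposited table.

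miR-3470a and the miR-3473 group carry sequence of rodent short interspersed repeats, which are present in very many copies in the mouse genome and in transcripts. The miR-3470a probe is shown because its complement lies also in the mature sequence of miR-3470b.
miR-3470a probe: ccagcctggtctaca
miR-3470a had 1071 in the control sample and 804 in the knockout sample, a difference of -0.41 ± 0.01, and its spots did not overlap, with 850 to 923 against 624 to 718 on the 14-base probe. It was 0.019 with the 75th percentile of all probes and negative under the other alternatives, as low as -0.65 with quantile normalization, -0.61 after normexp and -0.68 in the authors' deposited table.

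The 3 measured members of the miR-3473 group are near copies that differed in direction.
miR-3473a: uGGAGAGAuggcucagca
miR-3473e: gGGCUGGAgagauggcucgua
The miR-3473e sequence and that of miR-3473b, given above, share the seed GGCUGGA and a run of 18 bases, the one seed shared among the measured members. miR-3473a shares 16 bases with miR-3473b, at a shifted start, and the complement of both miR-3473b probes lies in its mature sequence too. miR-3473b had 2571 in the control sample and 3216 in the knockout sample, a difference of 0.32 ± 0.01. Its 15-base probe ran from 2202 to 2398 in the control sample and from 2741 to 3070 in the knockout sample, and its 16-base probe from 2802 to 2928 and from 3443 to 3678. It was the 1 member above 0 whose spots did not overlap on any probe, and yet it turned to -0.24 with quantile normalization, -0.24 after normexp and -0.23 in the authors' deposited table.

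miR-3473e went the other way at the main scaling, from 146 to 118, a difference of -0.31 ± 0.03, with spots from 133 to 159 in the control sample and from 107 to 128 in the knockout sample. It turned to 0.12 with the 75th percentile of all probes, 0.10 with no scaling and 0.06 with spike-ins. miR-3473a was level, at 204 and 207, a difference of 0.02 ± 0.02, within 2 standard errors of 0, and its 2 probes had medians of 85.6 and 487 on the control against 87.6 and 499.6 in the knockout sample. The order, with miR-3473b above miR-3473e, was the same in each scaling that adds a constant and was turned with quantile normalization, after normexp and in the authors' deposited table. RefSeq places the 3 on different chromosomes, miR-3473a at chrX:162874920-162874937, miR-3473b at chr10:41670774-41670793 within the span of Ccdc162, and miR-3473e at chr5:31667296-31667316 within the span of Rbks. How much of the signal came from other copies of the repeat was not tested.

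The members above 0 were few and their differences small. miR-2137 stood highest, with 80.5 in the control sample and 101 in the knockout sample, a log2 difference of 0.33 ± 0.02 or 1.25-fold. Spots of its 13-base probe ran from 122 to 146 in the control sample and from 159 to 183 in the knockout sample, without overlap, whereas those of its 12-base probe, 40.4 to 62.3 and 50.8 to 68.3, overlapped. It lies at chrX:72992113-72992133 within the span of Zfp185. miR-3095-3p, within the span of the lysophosphatidic acid receptor gene Lpar1, went from 56.1 to 67.7, a difference of 0.27 ± 0.03. miR-3081-5p, within the span of Boc, which encodes a hedgehog co-receptor, went from 56.9 to 61.6, a difference of 0.12 ± 0.04. These 3 stayed positive under all 11 alternatives. Each alternative moved the median of all measured miRNAs upward, by 0.0005 to 0.43, so a positive sign was less at risk than a negative one.

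miR-3107-5p is of interest for its place. Its gene Mir3107 overlaps Mir486, a miRNA of red cells and muscle, within the span of the erythrocyte ankyrin gene Ank1 on chromosome 8. The probe given by the array file was used for it, and how far this probe reads the product of Mir486 was not tested.
miR-3107-5p probe: ctcggggcagctca
miR-3107-5p had 49.9 in the control sample and 52.1 in the knockout sample, a difference of 0.06 ± 0.03 that lay within 2 standard errors of 0, and its spots overlapped on both probes. Of the red cell markers, miR-451a and miR-144-3p stood beside it at 0.55 and 1.51, and skeletal muscle miRNAs at -0.996 to 0.05. miR-3107-5p stayed positive under all 11 alternatives, between 0.06 and 0.49, but each of these moved the median of all measured miRNAs upward.

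The remaining measured members were dim. miR-3110-3p went from 29.7 to 25.7, a difference of -0.21 ± 0.06, and turned positive under 5 of the alternatives that measured it. miR-3077-5p, within the span of Sap18, had 45.7 and 43.3 (-0.08 ± 0.05). miR-3075-5p, within the span of Zmiz1, had 36.8 and 35.3 (-0.06 ± 0.06). The spots of all 3 overlapped between the arrays, and the last 2 lay within 2 standard errors of 0 and turned positive under 7 of 11 alternatives each.

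**Figure D4:**
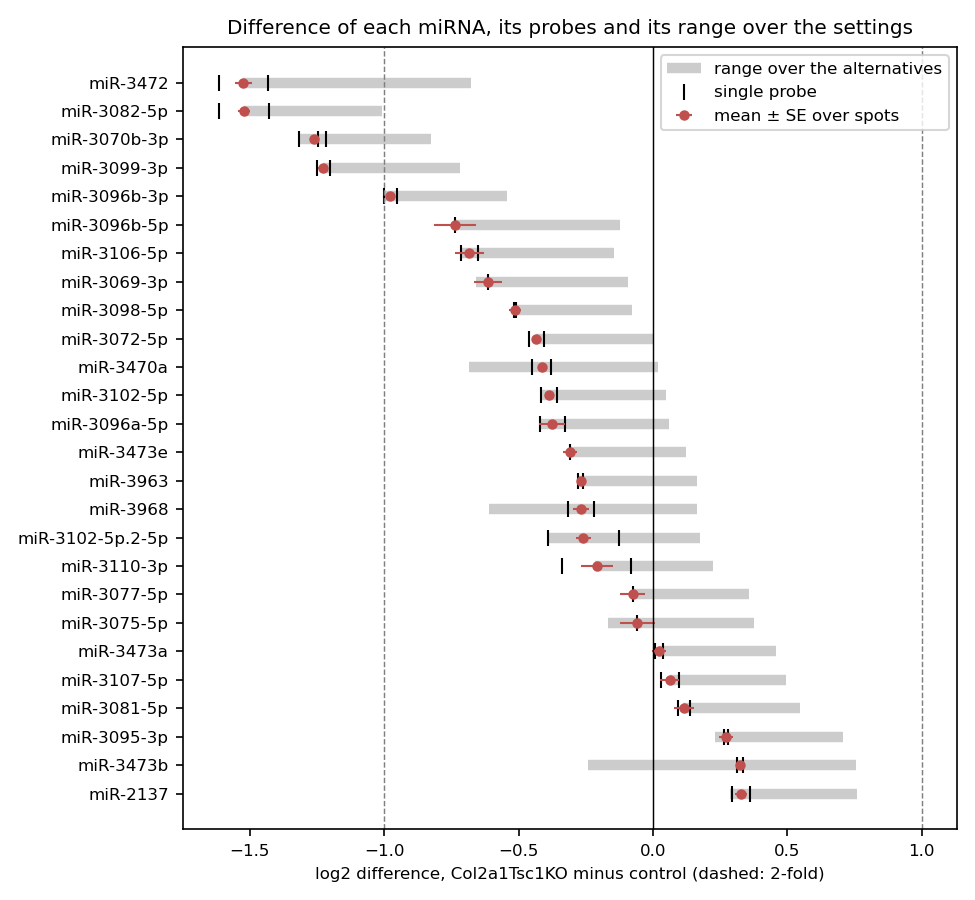
Log2 difference, Col2a1Tsc1KO minus control, of each of the 26 miRNAs (red points, ± SE over spots), of its single probes (black ticks) and over the alternative settings (grey bars), with 2-fold as dashed lines. The grey bars of 10 miRNAs lie wholly below 0 and those of 5 wholly above, and the other 11 reach 0 or cross it.

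Over the whole set, 22 of the 26 differences exceeded 2 standard errors over spots, and the 21 miRNAs read by several probes had the same sign on each, with a median gap of 0.06 and a largest of 0.27. Neither count was taken over all measured miRNAs, so neither sets the members apart. The spots of every probe were free of overlap between the arrays for 13 of the 26, of which miR-3473b alone was higher in the knockout sample, against 62.3% of all measured miRNAs. This is agreement within a pair of arrays and says nothing of the spread between mice. Across the alternatives 15 of the 26 kept their sign, 10 below 0 and 5 above, which was likewise not counted over all measured miRNAs. All the alternatives moved the median of all measured miRNAs upward, so positive signs were less at risk of turning than negative ones.

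A further 6 late-catalogued miRNAs were well above background on 1 array only. On the control array these were miR-3098-3p and miR-3102-3p.2-3p, given above, and miR-3078-3p, with 32.2 in the control sample and 13.3 in the knockout sample, at least 1.90-fold lower. Its hairpin lies 444 bases from Mir124a-1, a miRNA gene of neurons.
miR-3078-3p probe: cctaaagactaccccag
On the knockout array alone there were 3 as well. miR-3474, within the span of Actr5 on chromosome 2, had 25.5 there and 17.8 on the control array, at least 1.03-fold higher.
miR-3474: cCCUGGGAggagacguggauuc
For miR-3067-3p, within the span of the matrix protein gene Smoc1, the values were 20.6 in the control sample and 21.6 in the knockout sample, and for miR-3093-3p, 341 bases from Mir9-1, they were 12.002 and 18.2. Neither gave a bound above 1. Over all miRNAs 24 were seen on the control array alone, all with a bound above 1, and 39 in the knockout sample alone, 18 with one. These bounds hold at the main scaling, and with no scaling those on the control side would be lower and those on the knockout side higher by 0.41 on the log2 scale.

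The 26 measured miRNAs and the 6 seen on 1 array came from 28 miRNA genes. RefSeq placed 26 of these, on 14 chromosomes, and 19 lay within the span of a protein-coding gene.

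The authors' deposited table of log2 values, whose method the sources used here do not state, has 33 of the 148 above its floor on the control column and 35 on the knockout column, 32 on both. Both columns have their floor as their median, -3.26 and -3.32. Over those 32 the median difference was -0.24, and 22 of the 26 miRNAs measured in both sources had the same sign as above.

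**Figure D5:**
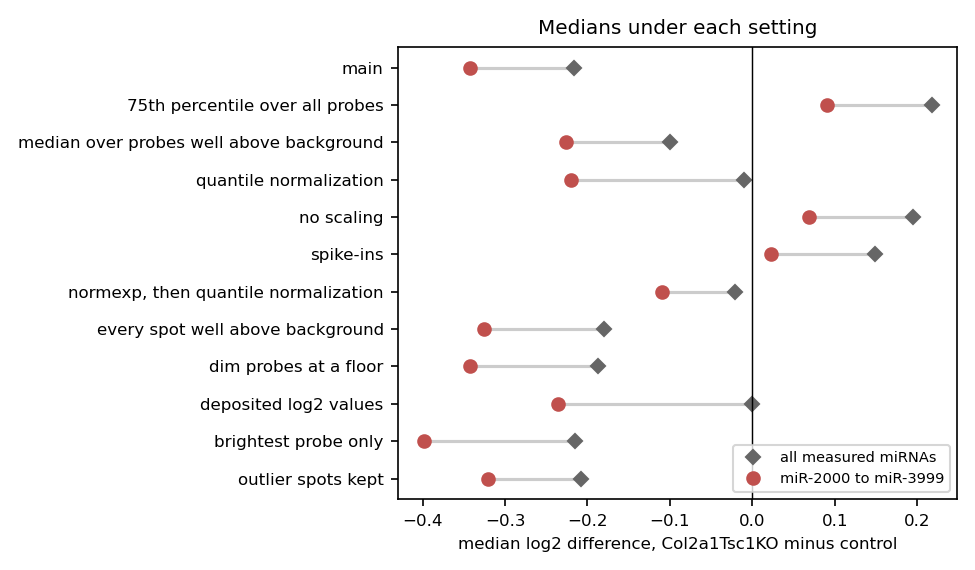
Median log2 difference, Col2a1Tsc1KO minus control, of the late-catalogued miRNAs (red circles) and of all measured miRNAs (grey diamonds) under the main setting and each of the 11 alternatives. The red circles run from -0.40 to 0.09 and lie left of the diamonds in every row, including the 3 scalings in which both medians are above 0. Scalings that only add a constant move both medians alike and cannot change the gap between them.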

How the data were processed

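The scanner files deposited by the authors were written by Agilent Feature Extraction 10.7, as the submitters' processing notes state, and hold per spot an intensity after background subtraction beside the raw one, unscaled per the file headers. The authors also deposited log2 values, 1 per miRNA, by a method the sources used here do not state.

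Outlier spots were dropped, log2 intensities were averaged per probe (18 to 40 spots for a member on an array), and the arrays were brought to the same 75th percentile of 476 probes well above background on both. A miRNA's difference was the mean over such probes. A 2-fold difference (log2 of 1) served for counts only. There is 1 array per group, so p-values were not computed, and the number of arrays limits the precision. The steps were tested on simulated data. Python 3.11.15 (pandas 2.3.3, numpy 2.4.6) was used, and R 4.3.3 with limma 3.58.1 for normexp (offset 50).

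All measured members are named. Sequences are shown for the 4 lowest, the 4 highest, the brightest and the largest bounds. Those of miR-3473a, miR-3473e, miR-3107-5p and the miR-3096 group were added after their values were seen. The members, the marker lists and the comparisons were chosen with earlier results of these data known.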

Additional observations from a re-analysis of the deposited data

How the results depend on the processing

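The members' median of -0.34 was 0.091 when the 75th percentile was taken over all probes, 0.068 with no scaling and 0.023 with scaling to 4 spike-ins, which reverses its sign, since these settings add a constant to every difference. It was -0.23 with the median over probes well above background, -0.22 with quantile normalization, -0.11 after normexp followed by quantile normalization, -0.24 in the deposited log2 values (32 miRNAs) and -0.40 with the brightest probe only. The count at least 2-fold lower, 4, was 2 in each of these first 3 settings (75th percentile of all probes, no scaling, spike-ins) and 1 after normexp. Normexp adds an offset to the intensities, so differences of dim miRNAs shrink by construction. Requiring every spot well above background, keeping dim probes at a floor or keeping outlier spots gave medians of -0.33, -0.34 and -0.32. The members' median lay below that of all measured miRNAs in all 11 alternatives. Settings that only add a constant could not change this gap, which was -0.13 in each of them. In the other alternatives it ran from -0.09 after normexp to -0.24 in the deposited log2 values. The members were in effect selected on this difference, so the gap carries no test. No paired analysis was possible because each group has 1 array, so the groups share fewer than 2 replicate numbers. Leaving out a replicate was likewise not possible. Signals near background limit the dim members, most of whose spots overlapped between the arrays, apart from those of miR-3069-3p and of 1 miR-3106-5p probe.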
